A study of Drosophila melanogaster with 2 samples.

Results

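In all, 10 genes of the embryonic salivary gland were followed through the binding profile of Huckebein: fkh, CrebA, sage, eyg, toe and sens, which encode transcription factors, klar and crb, which act in the shape of the gland, and PH4alphaSG1 and PH4alphaSG2, which encode enzymes of its secretory cells. They are 10 of the 13945 protein-coding genes annotated on the chromosome arms, chosen by name. Each gene was given the summits, the positions of highest signal within a peak, that fell between its end and a point 5 kb upstream of its start. The chromatin came from whole Drosophila melanogaster embryos of the hkb-GFP strain aged 0 to 24 h, in which an insertion targets hkb so that it makes a fusion with eGFP, and it was precipitated with anti-GFP. All samples formed 1 group of 2 biological replicates, with no second genotype, treatment or time, so each gene's values are set beside those of all protein-coding genes and not beside a control. Gland cells are a small part of a whole embryo, and the cells in which a site was bound were not measured. The labels call the replicates biological and do not describe their collections. A control experiment named as possible was not analysed here.

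The salivary glands arise from a pair of ectodermal placodes in the ventral head, specified by the homeotic factor Scr with its cofactors Exd and Hth. The placode cells constrict apically and move inside in a fixed order, and Huckebein, a zinc finger factor expressed in the placode, is known to be needed for the site where this begins. The cells have finished dividing before they move inside, and there they become a secretory tube, under factors that include Fork head, CrebA and Sage.

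The deposited peak lists differ in how strict they are. There were 7220 peaks in the list made from both replicates together, called combined here, 5260 in that of replicate 1 and 4347 in that of replicate 2. All of these were thresholded by the authors on the irreproducible discovery rate (IDR), which measures how alike a pair of peak sets ranks a site, and every listed peak has a −log10 IDR of at least 2. The longer ranked lists also hold candidates below that limit. Peak strength is given as the signal value, a score from the authors with no stated unit, and its ranks hold within 1 list only. No read totals are in the lists, so the depth behind each value is unknown.

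Of the 10 genes, 5 held a summit in the combined list: fkh, klar, crb, CrebA and eyg. The other 5, sage, toe, sens, PH4alphaSG1 and PH4alphaSG2, held none. By the same rule 44.3% of all protein-coding genes held a summit, and a share of 5 in 10 is near that of genes at large. In the list of replicate 1 there were 4 genes with a summit, against 36.7% of protein-coding genes, and in that of replicate 2 the same 4 genes, fkh, klar, crb and CrebA, against 32.9%. These 4 had a summit in both replicates' lists, against 29.4%.

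Gene length bears on such counts, because a long gene offers more room for a summit. The intervals of sage, PH4alphaSG1 and PH4alphaSG2 are under 8 kb, and 0 of these 3 genes held a summit where 35.0% of protein-coding genes with intervals that short did. Between 8 and 20 kb, fkh and eyg held one and toe and sens did not, that is 2 of 4 genes against 55.5%. Both genes between 20 and 50 kb, CrebA and crb, held summits, against 70.6% of protein-coding genes of that size, and so did klar, the only salivary gland gene over 50 kb, against 71.2%.

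**Figure D1:**
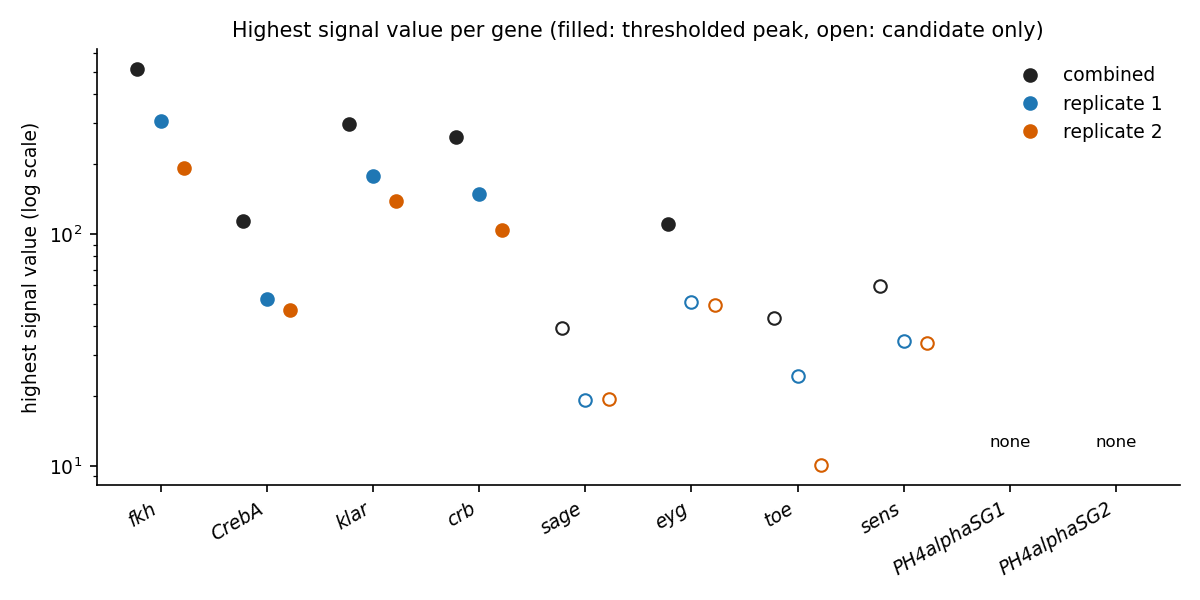
Highest signal value of each gene (log scale) in the combined list and in each replicate; filled points are thresholded peaks and open points are candidates that missed the IDR limit, shown where the gene has no thresholded peak in that list. The fkh points are the highest in each list, 514 in the combined list, while PH4alphaSG1 and PH4alphaSG2 have no point because no candidate was listed there.

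The sequences at the summits that the following values turn on are printed here so that each can be read beside its gene. They are from the RefSeq Release 6 assembly, plus strand, and all lie outside annotated exons. The first window covers 100 bp either side of the strongest summit, at fkh, chr3R:28585391-28585591, and its capitals mark the Huckebein core CACGCCC read on the minus strand.
fkh, 227 bp upstream of the start: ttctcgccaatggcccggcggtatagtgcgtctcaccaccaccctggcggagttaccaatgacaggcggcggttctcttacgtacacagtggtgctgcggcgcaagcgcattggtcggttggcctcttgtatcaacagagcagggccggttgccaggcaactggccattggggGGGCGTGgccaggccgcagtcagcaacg
The next windows cover 50 bp either side of the summit, which is base 51. In these, capitals mark the fork head core TAAACA on either strand at klar and at the first crb summit and GAGAGAG on either strand at eyg. The CrebA windows and the second crb window hold no match to any of the 8 motifs searched. The windows are chr3L:441241-441341 and chr3L:440384-440484 at klar, chr3R:24296045-24296145 and chr3R:24294883-24294983 at crb, chr3L:15538014-15538114 and chr3L:15534863-15534963 at CrebA, and chr3L:12468119-12468219 at eyg.
klar, 195 bp upstream of the klar-RC start: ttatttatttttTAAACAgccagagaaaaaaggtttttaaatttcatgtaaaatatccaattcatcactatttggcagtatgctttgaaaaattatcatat
klar, 662 bp inside klar-RC: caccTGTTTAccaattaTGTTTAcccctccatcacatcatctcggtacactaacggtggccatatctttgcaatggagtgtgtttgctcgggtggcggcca
crb, 1017 bp inside the gene: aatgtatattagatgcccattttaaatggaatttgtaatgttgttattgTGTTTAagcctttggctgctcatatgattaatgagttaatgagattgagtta
crb, 145 bp upstream: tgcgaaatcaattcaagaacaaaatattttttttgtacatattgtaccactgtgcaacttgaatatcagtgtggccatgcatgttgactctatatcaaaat
CrebA, 2669 bp inside the gene: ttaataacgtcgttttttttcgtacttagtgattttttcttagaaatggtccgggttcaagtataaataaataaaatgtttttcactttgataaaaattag
CrebA, 482 bp upstream: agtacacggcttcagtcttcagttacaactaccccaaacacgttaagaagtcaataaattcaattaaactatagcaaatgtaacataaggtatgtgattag
eyg, 148 bp upstream: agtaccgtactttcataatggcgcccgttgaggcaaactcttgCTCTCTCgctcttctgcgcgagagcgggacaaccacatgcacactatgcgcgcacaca

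Among the transcription factors, fkh (FBgn0000659, 3R:28580976-28585264, minus strand) carried the strongest peak. It encodes Fork head, a FoxA factor that the gland needs for invagination and for the survival of its cells. The peak at 3R:28585357-28585621 had a signal value of 514 with both replicates combined, and of 308 in replicate 1 and 192 in replicate 2 when each was called alone. It held rank 267 of 7220 in the combined list, 229 of 5260 in replicate 1 and 363 of 4347 in replicate 2, and 92.2% of the protein-coding genes with a summit had a lower highest value. The replicates placed the summit 14 bp apart, replicate 1 at the same base as the combined list. No annotated start of another gene lay within 500 bp of it.

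A weaker fkh peak lay 1976 bp upstream at 3R:28587048-28587431, with 127 in the combined list and 83.9 in replicate 1. Replicate 2 had only a candidate there, of 32.9 with a −log10 IDR of 1.49, and the conservative list holds the site. Another summit, 208 bp further upstream with a value of 12.7, belongs to a peak that overlaps the second. Both lie inside the noncoding gene lncRNA:CR43126, which runs away from fkh on the other strand.

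CrebA (FBgn0004396, 3L:15535395-15553214, plus strand) encodes a bZIP factor that raises the genes of the secretory pathway. It held 4 summits of modest value on both sides of its start. The highest, 2669 bp inside the gene in an intron, had a combined signal value of 114. The others lay 482, 1709 and 2595 bp upstream, with 89.1, 81.5 and 69.8. Only 36.7% of protein-coding genes with a summit had a lower highest value than CrebA.

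The replicates did not share a thresholded CrebA peak. Replicate 1 listed the site 1.7 kb upstream, with 52.6, and replicate 2 listed the site 2.6 kb upstream, with 47.1. These summits were 873 bp apart. The replicate 2 summit, its only one for CrebA, lay nearer to the start of CG43248, 1357 bp away, than to that of CrebA. At the intronic site, replicate 1 had a candidate of 44.8 with a −log10 IDR of 1.66 and replicate 2 one of 70.7 with 1.97, just short of the limit of 2. At the site 482 bp upstream both were far short of it, with 44.2 and 0.216 in replicate 1 and 37.7 and 0.186 in replicate 2. CrebA therefore counts as a gene with a summit in both replicates through different sites, and with summits required to lie within 100 bp of each other 3 genes remain, fkh, klar and crb.

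The eyg gene (FBgn0000625, 3L:12462537-12468021, minus strand) encodes a Pax family factor that acts in gland and duct formation. Its peak at 3L:12467977-12468360 had its summit 148 bp upstream of the start and a combined signal value of 110. Neither replicate listed it alone: the candidates there had 50.7 with a −log10 IDR of 1.19 in replicate 1 and 49.4 with 0.727 in replicate 2. The 2 signal values are close in number, but they come from separate lists and may not be on the same scale. The site passed the limit only in the lists made from both replicates. It had 3.16 in the combined ranked list and 2.99 in the list that ranks the replicates against each other. A second summit of 3.68, 347 bp upstream, sits on an overlapping peak.

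The neighbouring toe (FBgn0036285, 3L:12422510-12432668, minus strand), a Pax paralogue of eyg that begins 29.9 kb from it, had no thresholded peak. Its highest candidate in the combined ranked list had a signal value of 43.4 with a −log10 IDR of 1.02, in an intron, and the highest was 24.3 in replicate 1, 94 bp upstream of the start, and 10.1 in replicate 2, 8811 bp inside the gene. The 3 lists thus placed it at 3 different positions. Only 21.0% of the protein-coding genes with a candidate had a lower highest value.

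The sens gene (FBgn0002573, 3L:13396228-13401125, minus strand), which encodes the zinc finger factor Senseless and keeps gland cells from dying, also had none. Its highest combined candidate, 2905 bp inside the gene in an intron, had 59.5 with a −log10 IDR of 1.15, and replicate 2 had 33.9 at that site while the highest value of replicate 1, 34.4, lay 2560 bp upstream. The −log10 IDR of that replicate 1 candidate, 1.21, was the highest among the genes without a peak, and 59.5 is below the median of 78.0 for the highest candidate of a protein-coding gene.

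For sage (FBgn0037672, 3R:9262654-9264142, minus strand), the bHLH factor that works with Fork head in gland cells, the highest combined candidate had a signal value of 39.4 and a −log10 IDR of 0.566. It lay 1744 bp upstream and inside TrpRS, the neighbouring tryptophanyl-tRNA synthetase gene. The highest values were 19.3 in replicate 1 and 19.4 in replicate 2, where the candidate lay 360 bp inside sage.

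**Figure D2:**
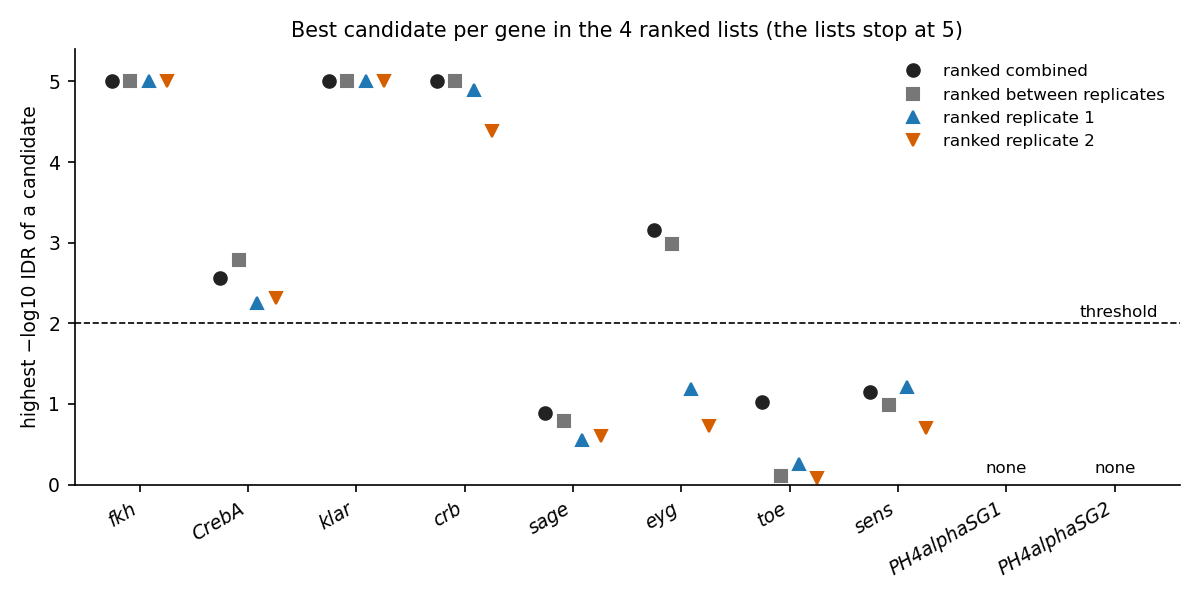
Highest −log10 IDR of any candidate in each gene's interval in the 4 ranked lists, with the authors' limit of 2 as a dashed line. The fkh and klar candidates reach 5, the highest value the lists hold, in all 4 lists, eyg passes only in the lists made from both replicates, and no candidate of sage, toe or sens passes 1.21.

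The genes of gland shape, crb and klar, held 17 of the 26 summits found in all 10 intervals. Both are known to act with hkb in the invaginating gland. The crb gene (FBgn0259685, 3R:24295078-24314541, plus strand) encodes Crumbs, a transmembrane protein that sets the apical surface of epithelia. Its 6 summits had signal values between 92.3 and 261 in the combined list. The strongest lay 1017 bp inside the gene in an intron, at 3R:24295990-24296188, and its signal value was 261 combined, 148 for replicate 1 and 104 for replicate 2. The 3 lists placed this summit within 5 bp of each other.

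The peak at the crb start, with its summit 145 bp upstream, had a value of 129 combined, 61.5 for replicate 1 and 71.1 for replicate 2. Introns held 3 more summits, 3570, 6594 and 8215 bp inside, with 105, 92.3 and 111. The first of these was held by both replicates (65.6 in replicate 1 and 44.6 in replicate 2), as was the next (50.2 and 44.3), and the last was held by replicate 2 alone, with 43.1, where the candidate of replicate 1 had 60.7 and a −log10 IDR of 1.80. Thus 5 of the 6 crb summits lay under a peak of each replicate.

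The remaining crb summit, the second highest at 190, lay 4976 bp upstream of crb and 70 bp upstream of Uck, which encodes a uridine-cytidine kinase. Both replicates held it, with 87.8 in replicate 1 and 91.7 in replicate 2. It is counted for crb by distance alone. It also lies within 500 bp of a start of CG34290.

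The klar gene (FBgn0001316, 3L:434083-540614, minus strand) encodes Klarsicht, a KASH protein that ties nuclei and vesicles to microtubule transport and is needed for apical growth of the gland lumen. It spans 107 kb, has 5 annotated starts and held 11 summits, or 0.986 per 10 kb of interval. Over the union of all protein-coding intervals there were 0.629 summits per 10 kb, and over crb 2.45, CrebA 1.75, eyg 1.91 and fkh 3.23. The 5 genes without a summit had 0, and the 10 intervals as a set had 1.16. A single summit in an interval of 10.5 kb, that of eyg, is enough to exceed 0.629. For intervals that short, a value above 0.629 therefore follows from holding a summit at all. Overlapping peaks raise the values of fkh, eyg and klar: with peaks that overlap or touch counted as 1 site, crb had 2.45 sites per 10 kb, fkh 2.15, CrebA 1.75, eyg 0.954 and klar 0.897, against 0.586 over all protein-coding intervals.

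The strongest klar peaks lay not at the outermost start but near that of the short transcript klar-RC, almost 100 kb downstream. One summit was 195 bp upstream of that start, at 3L:441191-441403, with 298 combined, 177 for replicate 1 and 139 for replicate 2, at rank 708 of the 7220 combined peaks. The other was 662 bp inside klar-RC in an intron, at 3L:440242-440625, with 177 combined, 89.8 for replicate 1 and 84.0 for replicate 2. At the outermost start, shared by klar-RA, klar-RB, klar-RD and klar-RE, the summit lay 43 bp inside and had 127 combined, 80.3 for replicate 1 and 41.0 for replicate 2. This summit is also within 500 bp of the start of BORCS6, which runs the other way. The fourth site held by both replicates, 6622 bp inside those transcripts in an intron, had 137 combined, 68.0 for replicate 1 and 72.0 for replicate 2. These 4 sites were the only klar sites listed by both replicates.

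The start shared by klar-RF and klar-RH had a summit 6 bp inside with a combined value of 90.0. Neither replicate listed it: the candidate of replicate 1 had 63.7 with a −log10 IDR of 1.89 and that of replicate 2 had 36.5 with 1.47. The combined peaks of the other 6 klar summits were each overlapped by a peak of 1 replicate. For the weakest, with 4.94 at 3L:506489, this was the replicate 2 peak at 3L:506091-506454. That peak stops short of the summit and also overlaps the combined peak of the neighbouring summit at 3L:506289. The summit at 3L:506289 is the only one of the 26 in a coding exon, and the one 3757 bp upstream of klar lies inside Hipk, 1311 bp from its start. The summits at 3L:506289, 3L:506489, 3L:511107 and 3L:517433 were nearest to the start of lncRNA:CR46002, and not to a klar start. For the site 6622 bp inside the outermost transcripts the nearest start was that of CG34269, 5655 bp away. All of these are counted for klar by position in its interval.

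**Figure D3:**
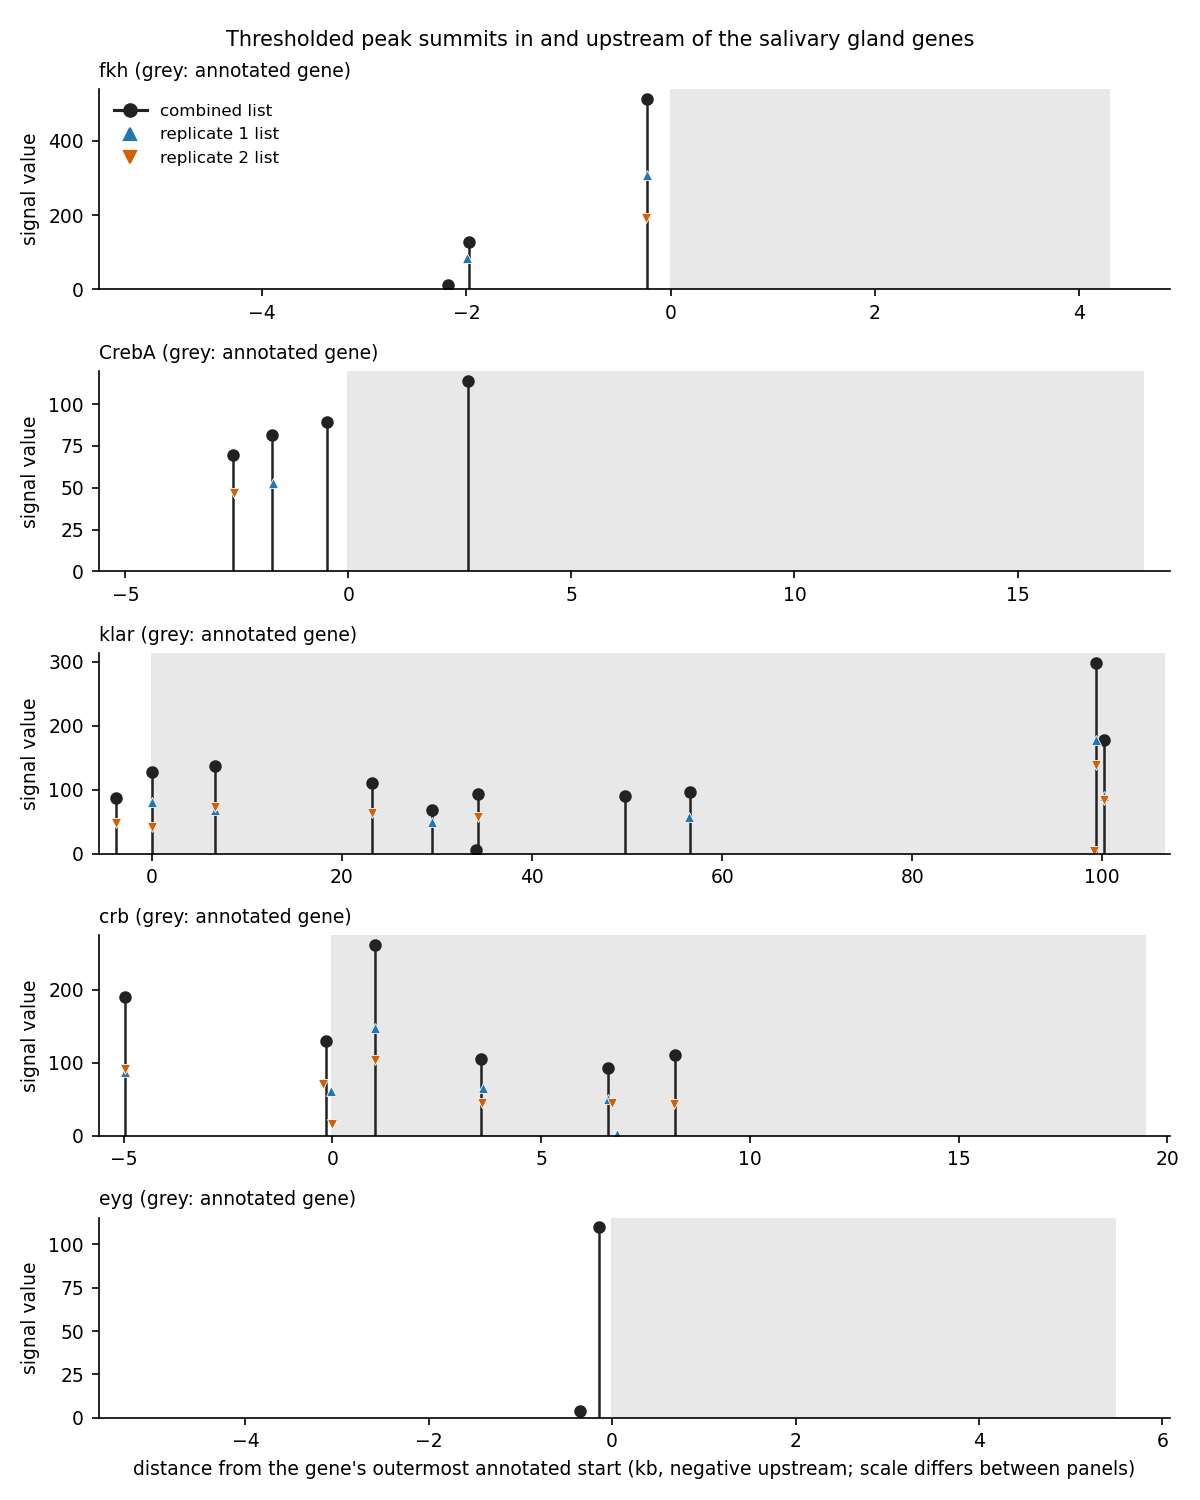
Signal value of each thresholded summit against its distance from the outermost annotated start of the gene (kb, negative upstream), with the gene in grey, black stems for the combined list and triangles for each replicate's own list. At fkh and eyg all summits lie upstream, at crb they reach 8215 bp into the gene, and at klar the highest pair lies near 100 kb, by the klar-RC start.

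PH4alphaSG1 (FBgn0051014, 3R:30503665-30505661, minus strand) and PH4alphaSG2 (FBgn0039779, 3R:30490074-30491987, plus strand) encode alpha subunits of prolyl 4-hydroxylase, an enzyme of the endoplasmic reticulum, and are made in the salivary gland. Neither had a thresholded peak, and neither had any candidate in the 4 ranked lists. Of all protein-coding genes 13.7% had none in the 4 lists, and 18.2% had none in the combined ranked list. These shares are over intervals of all lengths and were not counted for intervals under 8 kb. The nearest combined candidate lay 4871 bp beyond the PH4alphaSG1 interval and 4788 bp beyond that of PH4alphaSG2. The genes are 11.7 kb apart in a cluster of related genes.

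All 5 genes with a summit held one within 500 bp of an own start, a distance chosen with these summits known. That is 5 of 10 genes, against 24.3% of protein-coding genes. The 24.3% was not matched for interval length or number of starts. At CrebA and eyg neither replicate's own list holds a summit that near to the start. Of the 26 summits 8 lay within 500 bp of an own start, and 16 had an own start as the nearest start of any gene. Introns held 12, and 11 lay outside the gene. The like shares of all summits were not counted. A start of any gene was within 500 bp of 34.6% of the 26, against 46.7% of all 7220 summits. The median signal value was 108 over the 26 summits and 107 over the combined list, and only 2 of them, the strongest at fkh and klar, stood in the top 10% of the list.

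**Figure D4:**
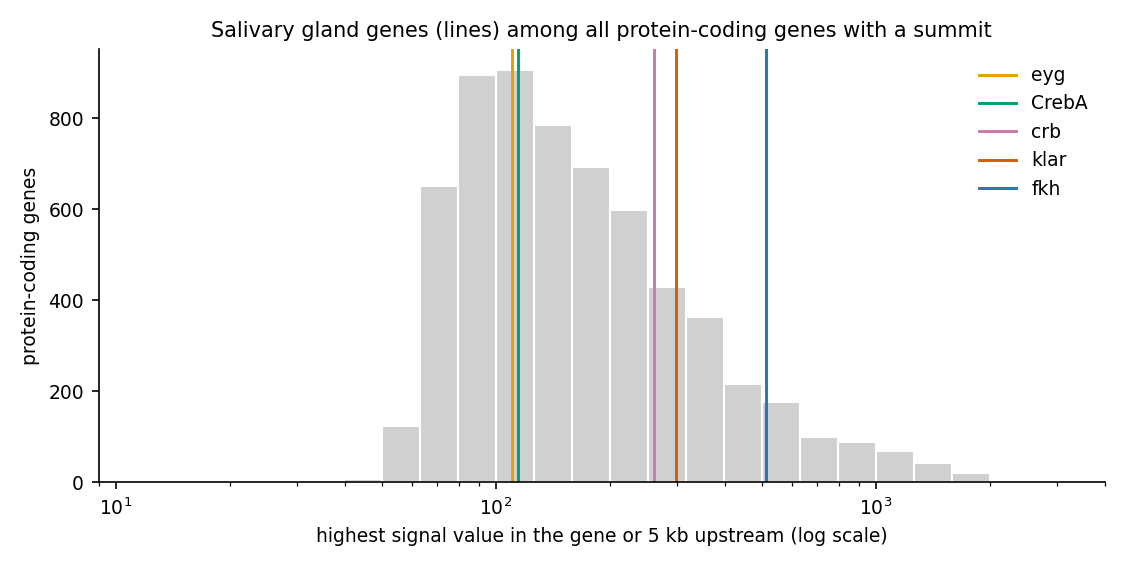
Number of protein-coding genes by their highest combined signal value (log scale), over the 6177 genes with a summit, with a line for each of the 5 salivary gland genes. The median gene has 145: crb (261), klar (298) and fkh (514) lie above it, CrebA (114) and eyg (110) below.

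Support from both replicates was less frequent at the 26 peaks than across the list, and support from 1 was more frequent, a difference that was not tested. Peaks of both replicates overlapped 10 of them (38.5%, against 47.9% of all combined peaks), a peak of 1 replicate overlapped 11 (42.3%, against 29.9%) and neither replicate overlapped 5 (19.2%, against 22.2%). Among the 11, the weak summits of 12.7 at fkh and 4.94 at klar lie outside the replicate peak that overlaps theirs, which also overlaps a neighbouring combined peak. The 10 with both are 1 at fkh, 4 at klar and 5 at crb. The 5 with neither are 2 at CrebA, 2 at eyg and 1 at klar. The conservative list of the authors, with 6989 peaks against 7220 in the combined list, held 21 of the 26. The like share of all combined summits was not counted.

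**Figure D5:**
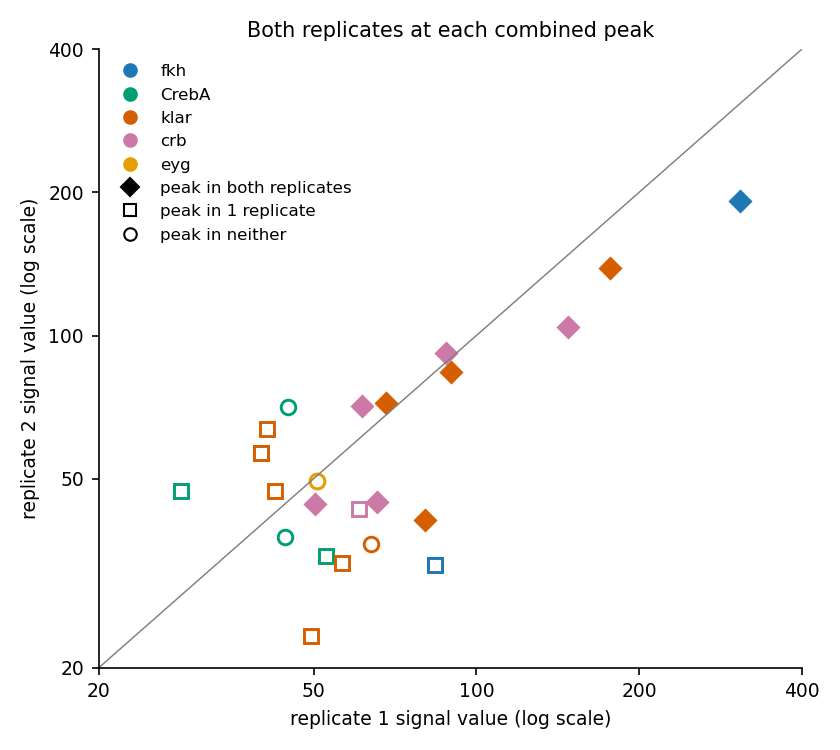
Signal value of the highest overlapping candidate in replicate 1 and in replicate 2 (both log scale) at each of the 26 combined summits, coloured by gene, with filled diamonds for peaks held by both replicates, open squares for 1 and open circles for neither; 3 weak summits on overlapping peaks fall on the points of their neighbours. The fkh start has the highest values, 308 in replicate 1 and 192 in replicate 2, and the 2 eyg summits share 50.7 and 49.4 near the line of equal values.

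The letters within 50 bp of each summit were searched on both strands for 8 motifs. The Huckebein core was CACGCCC, and GGGCGG stood for the GC box that zinc finger factors of the Sp type bind. The fork head core was TAAACA. For the CrebA protein the letters were CACGTCA, and in a shorter search CCACGT. Trl, the GAGA factor, was given GAGAGAG. For DREF the letters were TATCGAT, and for Zelda they were CAGGTAG. Both CrebA searches share the letters CACGT, so the same CACGT can match both. The Huckebein core and GC box share GGGCG on 1 strand but differ in the letter that follows it. The Huckebein core was at 0 of the 26 summits, and 0.762% of all 7220 summits and 1.27% of windows 500 bp to either side held it. Within 100 bp it was at 1 summit, the strong one at fkh, 73 to 79 bp from the summit on the side away from the gene, against 1.75% of all summits. The fork head core was at 6 of 26 summits, 4 of them at klar and 1 each at crb and CrebA, against 15.0% of all summits and 10.3% of the windows beside them. At crb it lay over the summit base itself, and the klar window 662 bp inside klar-RC held it at 2 places. GAGAGAG was at 3 of 26 summits, both of eyg and the klar summit within Hipk, against 2.48% of all summits. The 2 eyg summits lie on overlapping peaks that form 1 site when joined, and the second has a signal value of only 3.68. The other 5 motifs were at none. Within 100 bp, GGGCGG was at 2 klar summits (5.06% of all summits) and TATCGAT at 1 klar and 1 crb summit (5.07%). A match describes letters only, not binding.

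Base composition varied widely among the members. The window at the fkh start was 57.4% G and C and that of the first eyg summit 55.4%, above the upper quartile of all summits (43.6%), while the strongest klar window had 22.8%, below the lower quartile (27.7%), and the strongest crb window had 28.7%. The median of the 26 windows was 38.1%, against 34.7% for all summits.

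Other genes of gland formation were counted by the same rule in 3 lists. Of 10 genes of specification and patterning, 8 held a combined summit and 6 a summit in both replicates, with dpp, which limits the placode dorsally, at 330, hth at 319, trh, the duct factor, at 293 and rib, which acts in tube lengthening, at 269. Scr and exd held none, and hkb itself held 1 at 91.3, in the list of replicate 1 (48.2) but not in that of replicate 2. All 12 genes of morphogenesis held one and 9 did in both replicates, the highest of these being mew, an integrin subunit, at 227, sdt, the partner of Crumbs in its complex, at 219, Rho1 at 215 and Rok, its kinase, at 214. The highest value of the 31 genes was 338, at sqh, the myosin light chain of apical constriction, with its summit 120 bp inside the gene, 170 in replicate 1 and no peak in the list of replicate 2. The Rok summit lies within 500 bp of starts of SNRPG and mthl1. Of the 9 genes in the list for the secretory cell 6 held one and 3 did in both replicates. These 3 were ps, an RNA binding protein of the gland, at 312, Xbp1 at 256 and Sec61alpha, the translocon subunit, at 203. The Sec61alpha summit lies within 500 bp of starts of Daxx and a noncoding gene. The genes of this list without a summit were tgo, SrpRalpha and KdelR. As tgo encodes a transcription factor, the list is not made of secretory effectors alone. In both replicates' lists 18 of the 31 genes held a summit, against 29.4% of protein-coding genes, and the 3 of 9 of the secretory list is near that share. In the combined list 26 of 31 genes (83.9%) held a summit, against the 44.3% of protein-coding genes given above. Their intervals are long, however, with a median of 20.6 kb against 7.17 kb. By size, in the combined list only, 4 of 6 genes under 8 kb held one, against 35.0% of protein-coding genes of that size. From 8 to 20 kb it was 7 of 9, against 55.5%, from 20 to 50 kb 12 of 13, against 70.6%, and over 50 kb 3 of 3, against 71.2%. The share was thus above that of all genes of like size in each of the 4 classes, in a list chosen with results known and with few genes in a class.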

How the data were processed

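ChIP-seq peak lists of 2 biological replicates of 1 group were used. They are on dm6, and the submitters fragmented chromatin by sonication to 200 to 800 bp, per the labels. The sources used here name neither aligner nor peak caller. The signal value and the integer score of each peak are scores the authors deposited. The deposited lists also hold −log10 values of a q-value, not used here, and, in ranked lists, −log10 values of the IDR. Depth is unknown.

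Genes came from Ensembl release 115 and sequence from RefSeq Release 6, which have the coordinates of dm6; all 10 members have the same start and end in RefSeq. A summit is column 2 plus column 10, printed counted from 1. Peaks off 2L, 2R, 3L, 3R, 4 and X were left out. A replicate held a combined peak when its own thresholded peak overlapped it by at least 1 bp. There is no second condition, so nothing was tested and all values are descriptions. All members are named, and of each pathway list up to 4 genes with the highest signal value among those in the combined list and both replicates' lists. Members, lists and rules were chosen with earlier results of these data known; pathway genes without a summit, hkb, sqh and the 100 bp window at fkh were picked after their values were seen. Scripts (Python 3.11.15, matplotlib 3.10.9) were tested on simulated summits and motifs. Alternatives were the conservative list, the 50% of peaks with higher signal, an IDR of at most 0.05, 1 or 10 kb upstream, peak overlap, the nearest start, each replicate alone, other motif windows, and, added after seeing the data, leaving out summits near another gene's start and joining touching peaks.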

Additional observations from a re-analysis of the deposited data

How the results depend on the processing

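The same 5 genes held a summit in the conservative list, among the 50% of peaks with the higher signal value, at an IDR of at most 0.05, with 1 or 10 kb upstream, by peak overlap, by nearest start and without summits within 500 bp of another gene's start. With a single replicate's list the count was 4, eyg being lost in each. The count of genes in both replicates was 3 with 1 kb upstream and 3 with summits within 100 bp of each other, and 4 otherwise. The number of summits depended more on the choice: 26 fell to 13 among the higher-signal 50% and to 17 by nearest start, was 15 to 17 with 1 replicate left out, and lay between 20 and 34 under the other alternatives, with 23 when touching peaks were joined. The count of pathway genes, 26, lay between 18 and 27. The Huckebein core was at 1 summit with a window of 100 bp in place of 0, and at 0 with 25 bp and in either replicate. The fork head core was at 2 summits with a window of 25 bp, in place of 6. GAGAGAG was at 1 summit in replicate 2 and at 0 in replicate 1, in place of 3. Of the motifs at 0 summits, GGGCGG was at 2 and TATCGAT at 2 within 100 bp, GGGCGG at 1 in replicate 2 and CCACGT at 1 in replicate 1. The highest signal value of each gene was the same in the conservative list and with 1 kb upstream. No paired analysis was possible because there is 1 group only. With 2 replicates and unknown depth, a site listed in 1 replicate cannot be told from one missed in the other.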

Other observations

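The PH4alphaSG genes belong to a set of 8 genes named PH4alpha, all on the arm 3R, looked at after their values were seen. Of these, 2 held a combined summit, against 44.3% of protein-coding genes. In the combined ranked list 4 had no candidate, among them PH4alphaSG1 and PH4alphaSG2, against 18.2% of protein-coding genes. Both shares are over intervals of all lengths. Of protein-coding genes with intervals under 8 kb, as those of PH4alphaSG1 and PH4alphaSG2 are, 35.0% held a combined summit. PH4alphaEFB, named for the epidermis and fat body, had a summit 34 bp inside its start, at 3R:30465892-30466275, with a combined signal value of 87.8 and 55.6 for replicate 1, and replicate 2 did not list it. The other summit, counted for PH4alphaNE3 at 3478 bp upstream, had 637 combined, 364 for replicate 1 and 286 for replicate 2, and its nearest start, 380 bp away, is that of CG2246. PH4alphaMP and PH4alphaNE1 share 1 highest candidate, of 30.3 with a −log10 IDR of 0.105.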
